A study of Mus musculus with 24 samples.

Results

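The probes described here are the 158 of 46120 on the mouse array whose identifiers begin with IGK or IGL. They report immunoglobulin light chain gene segments. By the names in the identifiers, 146 belong to the kappa chain, of which 145 are variable segments and 1, IGKC, is the constant region, with no kappa joining segment among them. The other 12 belong to the lambda chain and comprise 8 variable segments, 1 joining segment (IGLJ4) and 3 constant regions (IGLC1, IGLC2 and IGLC3). By symbol, 147 of the 158 matched a RefSeq gene, which gave the gene type (functional segment or pseudogene) used below. Probe sequences were not used here, and kappa variable genes of one family are close in sequence, so a probe may also bind transcripts of its neighbours.

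An antibody is built from heavy chains paired with light chains, and each light chain is either kappa or lambda. A B cell makes its light chain gene by joining 1 variable to 1 joining segment, and the transcript is then spliced to the constant region. Every kappa transcript therefore carries the single kappa constant region, while any 1 variable segment is found only in the transcripts of the cells that chose it. Mouse B cells use kappa far more often than lambda, and plasma cells, the antibody-secreting form of the lineage, hold light chain mRNA at very high levels.

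Mesothelium of 2 sources and 6 solid tissues were hybridized, with 3 arrays for each of the 8 tissues and 24 arrays in all. All 8 tissues came from male C57BL/6 mice aged 7 weeks. The mesothelium was peritoneal mesothelium, and pleural and pericardial mesothelium combined into 1 pool, both dissected from many mice and pooled. The solid tissues were heart, lung, liver, bladder, skeletal muscle and adipose tissue (subcutaneous). The labels name no treatment and no engineered allele. Nothing states that the 3 arrays of a tissue hold RNA of separate animals, so each p-value reflects the scatter among these arrays, which may be purely technical.

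The mesothelial labels were checked on their defining genes. Wt1, a transcription factor of mesothelium, had a log2 normalized intensity of 12.73, 12.70 and 12.53 on the peritoneal arrays and 11.33, 11.55 and 10.84 on the pleural and pericardial arrays, against a highest mean of 8.69 in the other tissues (heart). Lrrn4 was detected on all 3 arrays of both mesothelium sources and had its highest mean elsewhere, 6.50, also in heart. Both could be named only through a table of genes that the study picked on these arrays as enriched in both sources, so this check could hardly fail and is no independent one. No marker of the solid tissues could be named from the tables used here, so those labels were not checked. Across all probes, 8862 to 13441 were detected per array, where detection means a deposited score above 0.99, the share of negative-control probes dimmer than the probe.

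Markers of other cell types were looked up in the same way. The genes named in this paragraph come from a table that the study picked on these arrays for their level in the pleural and pericardial source, so their direction was fixed by that choice, and markers outside the table were not read. Of 21 fixed genes of B and plasma cells, 2 could be named. Tnfrsf17, a receptor of plasma cells, was at 8.27 to 8.84 (log2) on the pleural and pericardial arrays and at 4.71 to 7.54 on the other 21, and Zbtb32, a transcription factor of activated lymphocytes, was at 9.12 to 9.37 against 4.79 to 8.07. Cxcl13, which attracts B cells, was at 13.06 to 13.46 against 5.30 to 11.65. Of 14 T cell and thymus genes 4 could be named. Rag1, which cuts antigen receptor genes for joining, Prss16 and Tbata were detected on all 3 pleural and pericardial arrays and on none of the other 21, and Dntt on 2 and none. Of 142 immunoglobulin heavy chain probes, which are found by identifier and do not depend on that table, 58 to 79 were detected on pleural and pericardial arrays and 1 to 24 on the others. Of 22 T cell receptor beta probes, also found by identifier, 9, 3 and 9 were detected on pleural and pericardial arrays. Adipose arrays 2 and 3 detected 5 and 9 of them. The pleural and pericardial arrays detected 1, 0 and 1 of 21 alpha probes and no gamma or delta probe. The part of these cell types in the light chain signal was not tested, and in whole tissue fewer cells of a type and less RNA per cell cannot be told apart.

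One array stood apart from its group. Adipose array 1 had 2 light chain probes detected, where adipose arrays 2 and 3 had 52 and 61. IGKC was at 7.78 on it and at 13.45 and 13.55 on the others. Cxcl13 (9.16 against 11.46 and 11.65) was also lower on array 1, while Tnfrsf17 (7.54 against 6.01 and 6.35) was not, and 11293 probes in all were detected on it against 12181 and 13087. All 24 arrays share 1 estimate of the spread in the fit, so this array widens the error of every comparison of the probes that differ on it. Values without it are given where they change a call.

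Light chain probes were detected most often in pleural and pericardial mesothelium, where 89, 87 and 88 of the 158 passed on the 3 arrays. Heart had 67, 60 and 49, adipose 2, 52 and 61, lung 27, 50 and 31 and peritoneal mesothelium 38, 28 and 29. Bladder had 10, 7 and 9, liver 3, 1 and 3, and skeletal muscle 1, 2 and 1. No array outside pleural and pericardial mesothelium reached its lowest count. Over all probes the range was much narrower, from 19.2% on a liver array to 29.1% on a pleural and pericardial array.

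On all 3 arrays of a tissue, 84 light chain probes (53.2%) were detected in pleural and pericardial mesothelium, 43 (27.2%) in heart, 25 (15.8%) in lung and 20 (12.7%) in peritoneal mesothelium. The share over all probes in these tissues was 24.3%, 21.3%, 24.5% and 23.9%. Bladder had 5 such probes, adipose 2, liver 1 and skeletal muscle 0. Without adipose array 1, 52 were detected on both other adipose arrays. Each probe detected on all arrays of any tissue was also detected on all 3 pleural and pericardial arrays, and the same held for the 52 of adipose. In the other direction, 22 probes were detected on pleural and pericardial arrays alone, 12 of them on all 3. Neither overlap was counted over all probes, so how unusual it is was not assessed. Of the 158 probes, 63 were detected on no array.

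**Figure D1:**
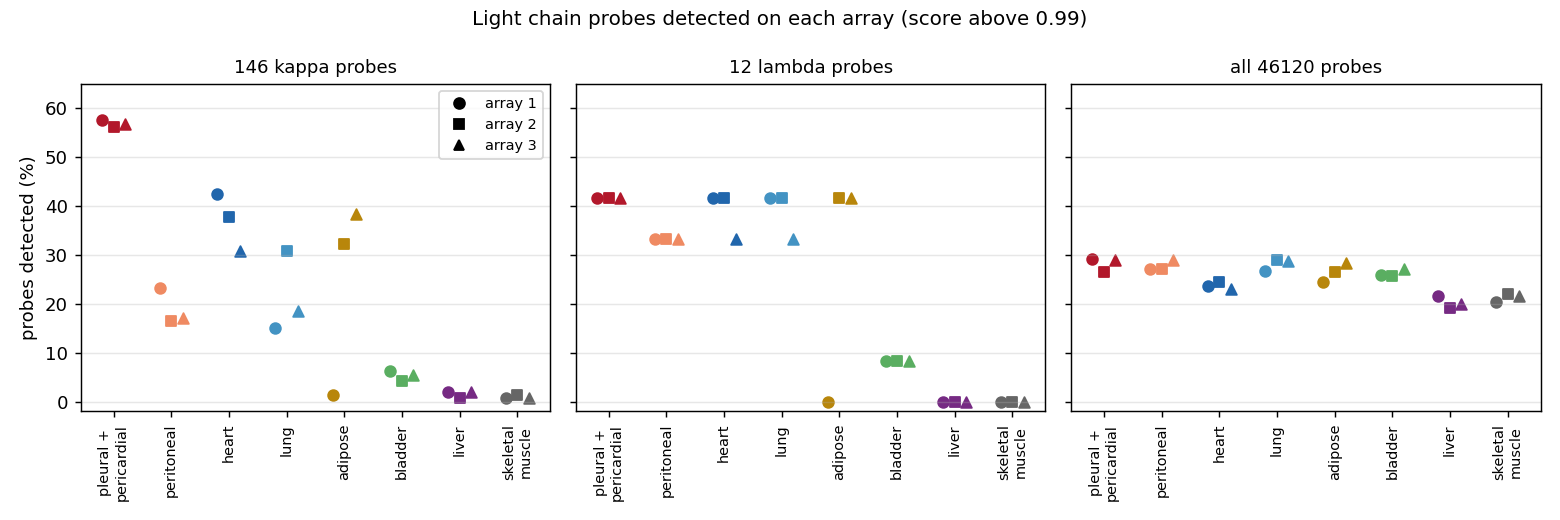
Share of kappa, lambda and all probes detected (score above 0.99, in percent) on each of the 3 arrays of the 8 tissues, with the marker shape giving the array number. Kappa detection is 56.2% to 57.5% on pleural and pericardial arrays and at most 42.5% elsewhere, lambda detection is 41.7% there and also on 2 arrays each of heart, lung and adipose, and adipose array 1 lies apart from adipose arrays 2 and 3.

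The kappa constant region, which all kappa transcripts share, gave the widest signal. IGKC was at 15.65, 15.31 and 15.83 (log2 normalized intensity) on the pleural and pericardial arrays and at 14.50, 13.78 and 13.40 in heart. It was at 13.17, 11.65 and 12.06 in peritoneal mesothelium, at 11.91, 12.66 and 12.19 in lung, and at 8.94, 8.96 and 8.88 in bladder. Liver gave 7.77, 7.75 and 7.92 and skeletal muscle 5.39, 5.50 and 5.64, where no array detected it. It was detected on the 21 arrays of the other 7 tissues. The 3 pleural and pericardial arrays were above all other arrays, the 2 high adipose arrays lay within the range of heart, and the lung and peritoneal arrays lay below heart and overlapped each other.

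By limma, IGKC in pleural and pericardial mesothelium exceeded the peritoneal level 9.87-fold (log2 difference 3.30, SE 0.92, adjusted p = 0.0376), the lung level 10.2-fold (adjusted p = 0.0161) and the liver level 220.3-fold (adjusted p = 1.35e-06). It was at least 406.5-fold higher than in skeletal muscle, with that tissue set to its detection floor. Against heart the difference of 1.70 (SE 0.92) did not pass (adjusted p = 0.286), although all 3 arrays were higher. Without adipose array 1 the same difference had an adjusted p of 0.000293, and that from peritoneal mesothelium one of 3.01e-07. The difference from heart also passed with each pair of tissues fitted separately (adjusted p = 0.00668). The call against peritoneal mesothelium was lost on leaving out any 1 pleural and pericardial array or peritoneal array 2 or 3 (adjusted p = 0.0759 to 0.156). Between heart, peritoneal mesothelium and lung no difference in IGKC passed (adjusted p = 0.293 to 0.995), but this too rested on adipose array 1. Without it, an alternative chosen after seeing the data, IGKC was 1.64 higher in heart than in lung (log2, SE 0.30, adjusted p = 0.000331) and peritoneal mesothelium minus heart was -1.60 (adjusted p = 0.000483), while peritoneal mesothelium and lung differed by 0.04 (adjusted p = 0.982).

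The lambda constant regions were also highest in pleural and pericardial mesothelium, but the order of the tissues below it differed between them. IGLC1 was at 13.18, 12.54 and 12.93 on the pleural and pericardial arrays, at 11.29, 9.05 and 7.98 in heart, at 9.06, 9.72 and 8.37 in lung and at 9.25, 8.27 and 7.58 in peritoneal mesothelium. IGLC2 was at 13.34, 12.92 and 12.88 in pleural and pericardial mesothelium, 11.87, 10.07 and 9.32 in heart and 9.81, 9.71 and 9.25 in peritoneal mesothelium. IGLC3 was at 12.42, 11.94 and 11.54 in pleural and pericardial mesothelium, 9.68, 8.42 and 7.43 in heart and 8.81, 8.57 and 8.14 in peritoneal mesothelium. For each of them the 3 pleural and pericardial arrays were above the other 21 arrays, but 2 adipose arrays came close, at 11.97 and 11.95 for IGLC2 and at 11.23 and 11.30 for IGLC3. In skeletal muscle and liver none of the 3 was detected on any array, and in bladder IGLC1 alone was.

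By limma, IGLC1 in pleural and pericardial mesothelium was 22.9-fold above the peritoneal level (log2 difference 4.52, SE 0.95, adjusted p = 0.00456) and 10.9-fold above the heart level (adjusted p = 0.0142). IGLC3 was 11-fold above either (adjusted p = 0.0419 and 0.0179). Blocking on the replicate number gave IGLC3 an adjusted p of 0.0529 against peritoneal mesothelium, and that call was also lost on the authors' values (0.0838) and on leaving out any 1 array of either mesothelium source, bladder or skeletal muscle, or single arrays of heart, liver and lung (0.0505 to 0.143). The differences from heart of IGLC1 and IGLC3 were lost without heart array 2, heart array 3 or pleural and pericardial array 1 (adjusted p = 0.0528 to 0.0963). IGLC2 was 11-fold higher than in peritoneal mesothelium and 6.17-fold higher than in heart without passing (adjusted p = 0.0527 and 0.0992). Without adipose array 1 these became 2.5e-05 and 0.000197. Both also passed under some changes of processing, such as each pair of tissues fitted separately (0.000446 and 0.024).

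Of the lambda variable segments, IGLV2 and IGLV3 were detected and the rest were not. IGLV2 was at 11.76, 11.36 and 11.95 on the pleural and pericardial arrays, 9.55, 8.17 and 8.45 in heart and 6.28, 7.45 and 6.52 in peritoneal mesothelium, and at most 7.71 on any other array. It was 30.7-fold higher than in peritoneal mesothelium (log2 difference 4.94, SE 0.48, adjusted p = 9.85e-07) and 7.83-fold higher than in heart (adjusted p = 0.000136). IGLV3 was at 9.05, 8.89 and 9.20 on the pleural and pericardial arrays, but at 11.09, 7.73 and 5.52 in heart, so the groups overlapped. It was at least 7.25-fold higher than in peritoneal mesothelium, where no array detected it (adjusted p = 0.0316), a call lost on leaving out any 1 array of either source (0.0722 to 0.0954) and with all rows used to infer the negative controls (0.434). Against heart it did not differ beyond the spread (log2 difference 0.93, adjusted p = 0.624), and without heart array 1 the adjusted p was 0.0112. IGLV1, IGLV4 to IGLV8 and IGLJ4, which RefSeq lists as a pseudogene, lay between 4.58 and 5.72 on all arrays and were detected on none.

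**Figure D2:**
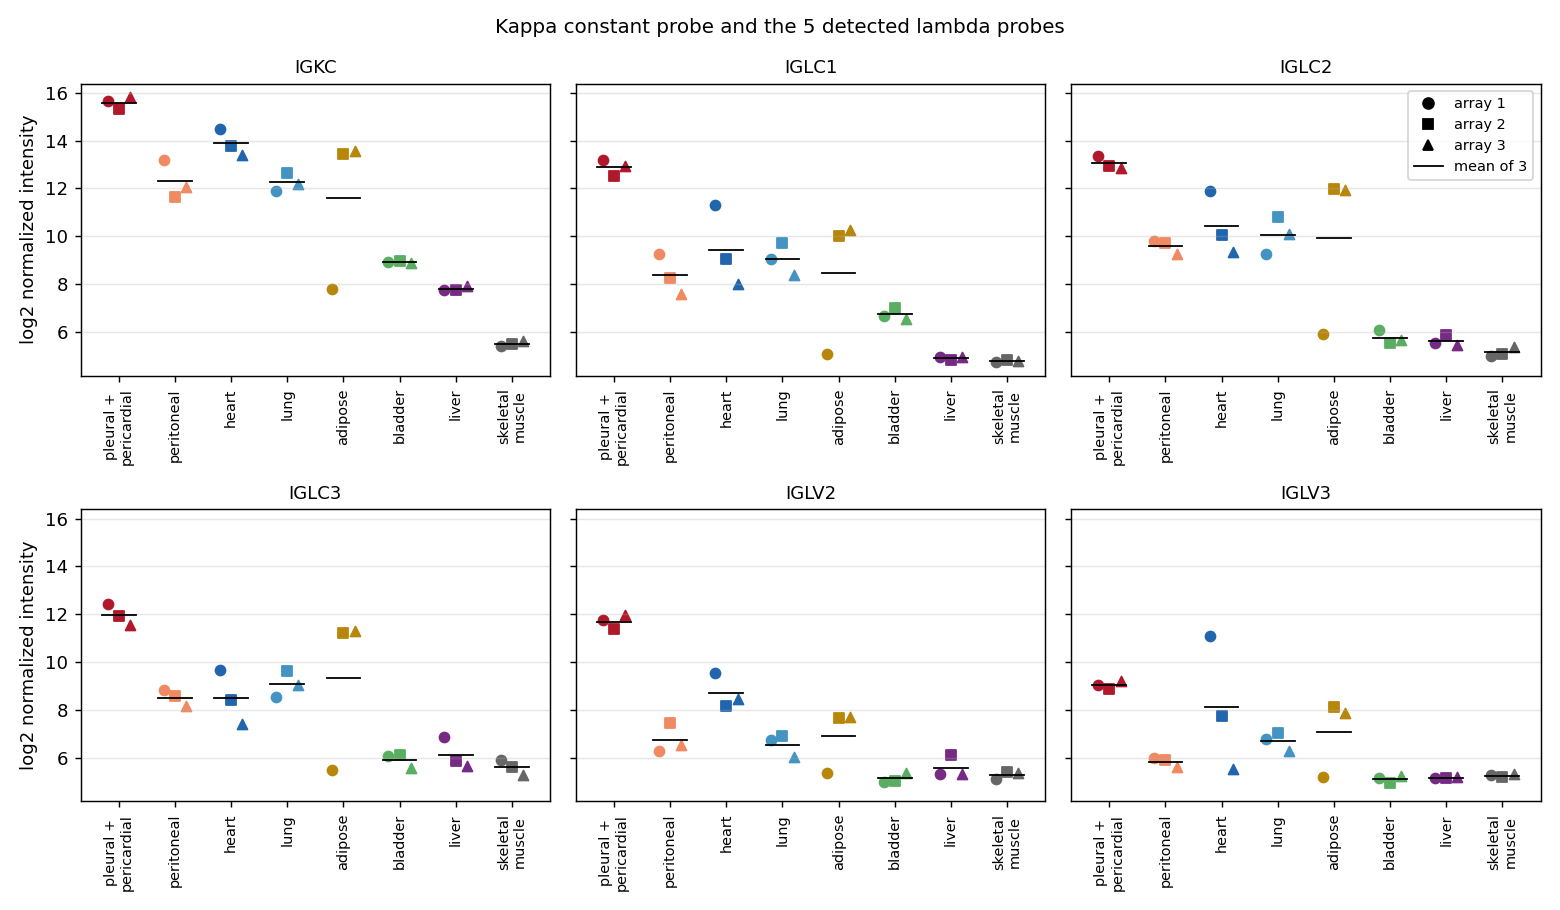
Log2 normalized intensity of IGKC and of the 5 detected lambda probes on each array, with points for arrays, shapes for the array number and a line for the mean of 3. The pleural and pericardial arrays are above all others for every probe but IGLV3, where heart array 1 (11.09) is highest, and adipose array 1 is below adipose arrays 2 and 3 throughout.

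Among the 145 kappa variable probes, 78 were detected on all 3 pleural and pericardial arrays. The 10 of these with the largest gap to the closest other tissue came from 4 families, with 7 in IGKV4. They were picked by that gap on these same arrays, so their folds, p-values and lack of overlap describe them and are no independent support. IGKV12-89 was at 12.74, 11.59 and 13.25 (log2) on the pleural and pericardial arrays, 8.47, 8.54 and 8.10 in heart and 7.17, 6.59 and 6.02 in peritoneal mesothelium, and at most 6.01 on the other 15 arrays. It was 61.2-fold higher than in peritoneal mesothelium, where 2 of 3 arrays detected it (adjusted p = 1.16e-09), 17.8-fold higher than in heart (adjusted p = 3.88e-08) and higher than in the 5 tissues that did not detect it by lower bounds of 43.6-fold (liver) to 83.2-fold (lung). The groups did not overlap in any comparison.

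IGKV4-77, a pseudogene by RefSeq, had the largest gap to the closest tissue of all. It was at 10.29, 9.28 and 11.45 on the pleural and pericardial arrays and at 4.59 to 6.54 on the other 21, where a single adipose array detected it. The difference from heart was 4.23 (SE 0.36, adjusted p = 5.93e-08), which is at least 13.3-fold over the detection floor. IGKV4-52 was at 10.30, 9.31 and 11.15 against 4.68 to 6.78, with 2 of the other arrays detecting it.

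For IGKV4-55 the pleural and pericardial arrays gave 13.25, 13.62 and 12.14, heart 10.98, 8.34 and 8.93, and peritoneal mesothelium 7.27, 6.11 and 6.06. It was 92-fold higher than in peritoneal mesothelium (adjusted p = 1.72e-06), where only 1 of 3 arrays detected it, and 12-fold higher than in heart (adjusted p = 0.000542). IGKV4-68 was at 12.71, 12.35 and 12.98 against 9.84, 8.55 and 8.81 in heart, and IGKV4-54 at 12.26, 11.72 and 12.61 against 8.92, 7.70 and 8.13. They were 56.6-fold and 53.5-fold higher than in peritoneal mesothelium, where 3 arrays detected the former and 2 the latter, and 12.2-fold and 15.4-fold higher than in heart.

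The remaining 4 probes were IGKV3-2, IGKV4-73, IGKV4-72 and IGKV13-84. In pleural and pericardial mesothelium IGKV3-2 was at 11.72, 11.10 and 10.21 and IGKV4-73 at 11.82, 11.61 and 11.21. IGKV4-72 was at 11.08, 9.98 and 10.39 and IGKV13-84 at 9.63, 9.71 and 11.18. All 4 had lower values on each of the other 21 arrays. IGKV13-84 was 1 of only 2 probes detected on all pleural and pericardial arrays in its family of 17, and the closest tissue was adipose (log2 difference 3.72, adjusted p = 0.000141). The 10 probes kept their calls against peritoneal mesothelium and against heart under each of 32 alternatives (limma, highest adjusted p = 0.013). As they were picked for large gaps, this was largely fixed by the choice.

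**Figure D3:**
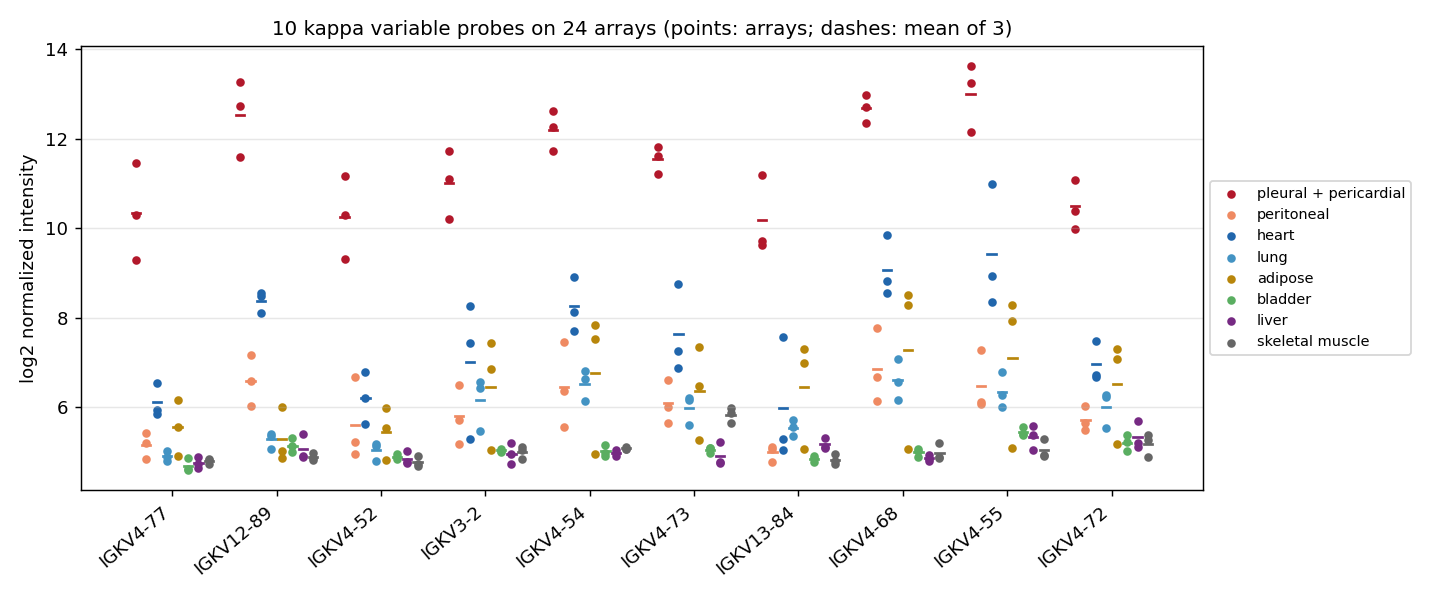
Log2 normalized intensity of the 10 kappa variable probes with the largest gap between pleural and pericardial mesothelium and the closest other tissue, with 1 point per array and a dash for each mean of 3, tissues in the order of the legend. The pleural and pericardial points lie above the 21 others for each probe, and by its mean heart or adipose comes next.

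The 5 kappa variable probes of the widest detection outside pleural and pericardial mesothelium were read on 13 to 16 of the other 21 arrays. IGKV17-121 was detected on 16 of them, including 2 liver arrays and 1 of skeletal muscle, and was at 10.67, 10.48 and 10.59 on the pleural and pericardial arrays against 9.23, 8.83 and 7.58 in heart. Its difference from heart was 2.04 (SE 0.58, adjusted p = 0.0172), a call lost without heart array 3 (adjusted p = 0.117) or pleural and pericardial array 1 (0.0554). IGKV4-61 was at 13.87, 13.74 and 13.23 in pleural and pericardial mesothelium, 12.13, 9.91 and 9.81 in heart and 9.11, 7.79 and 7.64 in peritoneal mesothelium. It was 43.2-fold higher than in peritoneal mesothelium (adjusted p = 1.68e-05) and 7.98-fold higher than in heart (adjusted p = 0.00283).

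IGKV12-41 was at 13.59, 12.57 and 12.81 on the pleural and pericardial arrays and at 11.85, 10.85 and 9.05 in heart, and the difference of 2.40 (SE 0.89) did not pass (limma, adjusted p = 0.08). It passed without adipose array 1 (0.00691), adipose array 3 (0.0493) or heart array 1 (0.0437). It also passed under some changes of processing, such as all rows used to infer the negative controls (0.00655) or an offset of 50 (0.0489). Against peritoneal mesothelium it was 18.1-fold higher (adjusted p = 0.00521). IGKV12-44, of the same family, was 18.4-fold higher than in peritoneal mesothelium (adjusted p = 0.00138) and 6.11-fold higher than in heart (adjusted p = 0.0229), the latter lost without either of heart arrays 2 and 3 or pleural and pericardial arrays 1 and 3 or on the authors' values (0.0514 to 0.147). IGKV8-31, a pseudogene by RefSeq, was at 11.42, 11.58 and 11.52 against 10.39, 8.52 and 8.73 in heart (adjusted p = 0.000492).

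In the direct comparison of the 2 mesothelium sources, limma gave 93 of the 158 light chain probes as higher in the pleural and pericardial source (adjusted p under 0.05), where 2.39% of all probes were. The count lower there was 0 (0 also at an unadjusted p under 0.05), where 3.4% of all probes were lower. The median log2 difference over the 158 probes was 1.91, and over all probes it was -0.01. Of the 93, 44 were detected on 1 or more peritoneal arrays and had a measured fold, with a median of 30.4. For 19 of them all 3 arrays of both sources detected the probe, and the fold ran from 9.87 (IGKC) to 56.6 (IGKV4-68) with a median of 27.2. Another 41 had only a lower bound because no peritoneal array detected them, and 8 were too dim for any fold. All comparisons of this source share its 3 arrays.

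Against the solid tissues, the pleural and pericardial arrays were higher for 95 light chain probes than in bladder (6.6% of all probes), 93 than in lung (6.71%), 91 than in liver (11.4%), 91 than in skeletal muscle (11.1%), 90 than in adipose (2.89%) and 82 than in heart (8.24%). In the other direction 1 probe was lower than in bladder (7.43% of all probes), 1 than in liver (11.2%) and 2 than in skeletal muscle (12.3%), and 0 were lower than in adipose (3.32%), heart (7.83%) or lung (7.34%). Among the probes called higher, the median measured folds were 7.34 over heart, 19.9 over adipose and 24.1 over lung, so that call selected them. They include probes read on only 1 or 2 arrays of that tissue. Over all 158 probes the median log2 difference from heart was 1.07. On all 3 heart arrays and all 3 pleural and pericardial arrays 43 probes were detected, and 40 of them were called higher than in heart. For these 40 the fold over heart ran from 3.28 to 17.8 (IGKV12-89) with a median of 7.56. The rest did not pass, among them IGKC (log2 difference 1.70), and are not in that range. In all 6 of these comparisons 75 probes passed, against 0.822% of all probes. By the study's own rule, a B-statistic above 0 and at least 2-fold higher than each solid tissue, 47 light chain probes were enriched, against 0.431% of all probes. They were 46 kappa variable probes and IGLV2.

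For 41 of the 47 the closest tissue was heart, for 4 adipose and for 2 liver. The smallest log2 difference of the 47 ran from 1.57 to 4.23 with a median of 2.96. IGKC and the 3 lambda constant probes were not among them, since their lowest B-statistics, against heart or adipose, were below 0. The 47 became 37 without heart array 2 and 61 without heart array 1, and 59 without adipose array 1, which held all 47. With each pair of tissues fitted on its own 6 arrays, 17 remained, all of them among the 47. On the array values themselves, 72 light chain probes had all 3 pleural and pericardial arrays above the other 21 (0.592% of all probes), and 69 of these were detected on all 3.

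By RefSeq gene type, 92 of the 145 kappa variable probes were functional segments, 47 were pseudogenes and 6 were not matched. Functional segments were detected on all 3 pleural and pericardial arrays in 67 of 92 cases (72.8%, 37 enriched), and pseudogenes in 8 of 47 (17%, 8 enriched), below the 24.3% of all probes. The median log2 difference from peritoneal mesothelium was 3.64 for functional segments and 0.03 for pseudogenes, and that from heart was 2.30 and 0.04. At an adjusted p under 0.05, 75 functional segments and 10 pseudogenes were higher than in peritoneal mesothelium, where 2.39% of all probes were. A pseudogene segment cannot encode a chain, and 17 functional segments were not detected on any array.

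The 8 pseudogenes detected on all 3 arrays were IGKV2-116, IGKV4-77, IGKV8-31, IGKV9-119, IGKV9-128, IGKV12-66, IGKV12-67 and IGKV14-126, named after their values were seen. IGKV14-126 was at 13.01, 12.18 and 13.35 on the pleural and pericardial arrays, 9.48, 9.39 and 9.47 in heart and 8.45, 7.79 and 8.05 in peritoneal mesothelium, and none of the 15 arrays of the 5 remaining solid tissues detected it. IGKV2-116, IGKV9-119, IGKV9-128, IGKV12-66 and IGKV12-67 were detected on pleural and pericardial arrays alone. Binding of these probes to transcripts of functional neighbours was not tested.

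**Figure D4:**
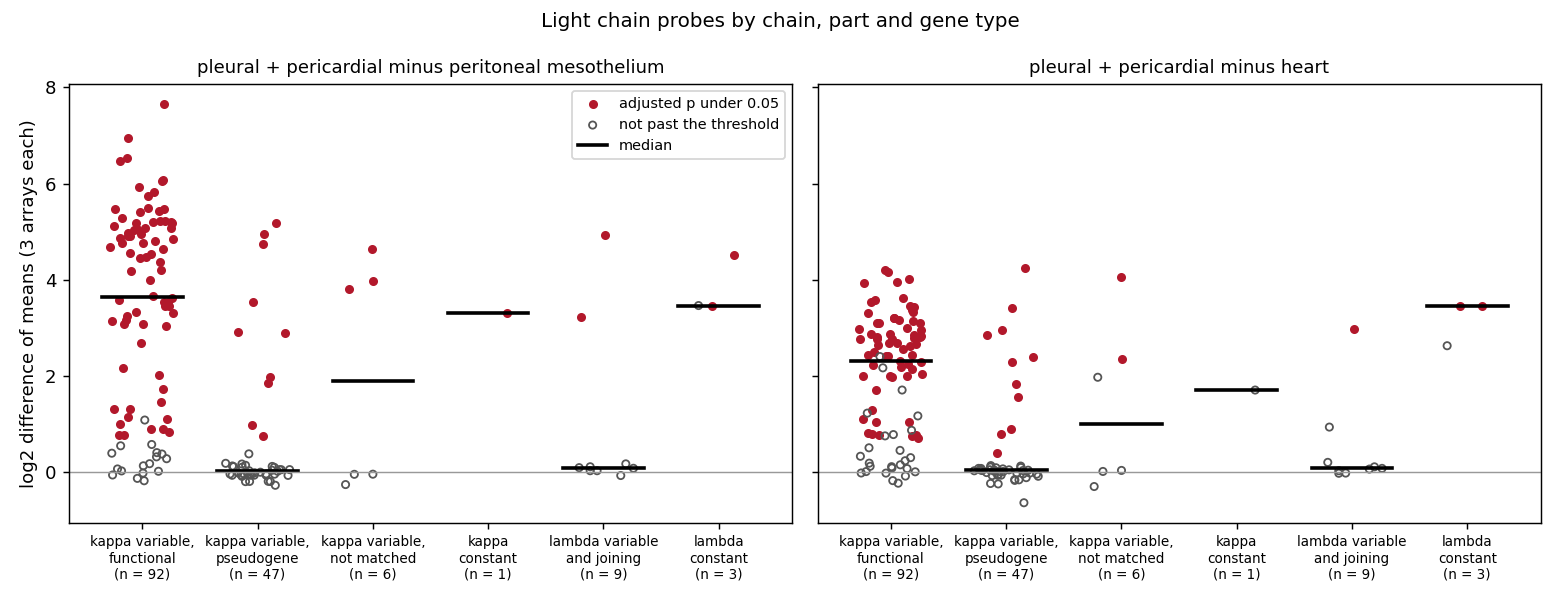
Log2 difference of means (3 arrays each) between pleural and pericardial mesothelium and peritoneal mesothelium (left) or heart (right) for every light chain probe, grouped by chain, part and RefSeq gene type, with filled points past an adjusted p of 0.05 and a line at the group's median. Functional kappa segments spread widely above 0 (median 3.64 and 2.30), most pseudogenes lie near 0, and so do the lambda variable and joining probes other than IGLV2 and IGLV3, while the lambda constant regions lie well above 0.

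Variable families differed in how many of their probes were read. In pleural and pericardial mesothelium 10 of 12 IGKV6 probes, 4 of 5 IGKV5 probes, 8 of 11 IGKV8 probes and 21 of 30 IGKV4 probes were detected on all 3 arrays. The share over all probes was 24.3%. In IGKV4, the largest family, 16 were enriched (53.3%, against 0.431% of all probes), and the median log2 difference from peritoneal mesothelium was 3.95. IGKV13 was at the other end, with 2 of 17 probes detected (11.8%) and a median of -0.01. IGKV2 (3 of 11, 27.3%), IGKV11 (1 of 4, 25%) and IGKV14 (2 of 7, 28.6%) lay near the share over all probes.

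Probes of IGKV4 and IGKV6 were also read in heart, peritoneal mesothelium, lung and adipose. IGKV4 had 15, 14 and 14 probes detected on the heart arrays, 13, 5 and 5 on the peritoneal arrays, 4, 10 and 5 on the lung arrays and 1, 11 and 15 on the adipose arrays. IGKV6 had 9, 8 and 5 in heart, 5, 3 and 3 in peritoneal mesothelium, 4, 7 and 4 in lung and 0, 7 and 9 in adipose. IGKV13 had 2, 0 and 0 in heart and none on the peritoneal arrays. Over all probes, 19.2% to 29.1% were detected per array. By position in the gene name, which numbers the segments along the kappa locus, 26 of 42 probes with locus numbers 1 to 46, 28 of 53 with 47 to 92 and 22 of 45 with 93 or more were detected on all 3 pleural and pericardial arrays. Of all probes, 24.3% were detected on all 3 of these arrays.

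**Figure D5:**
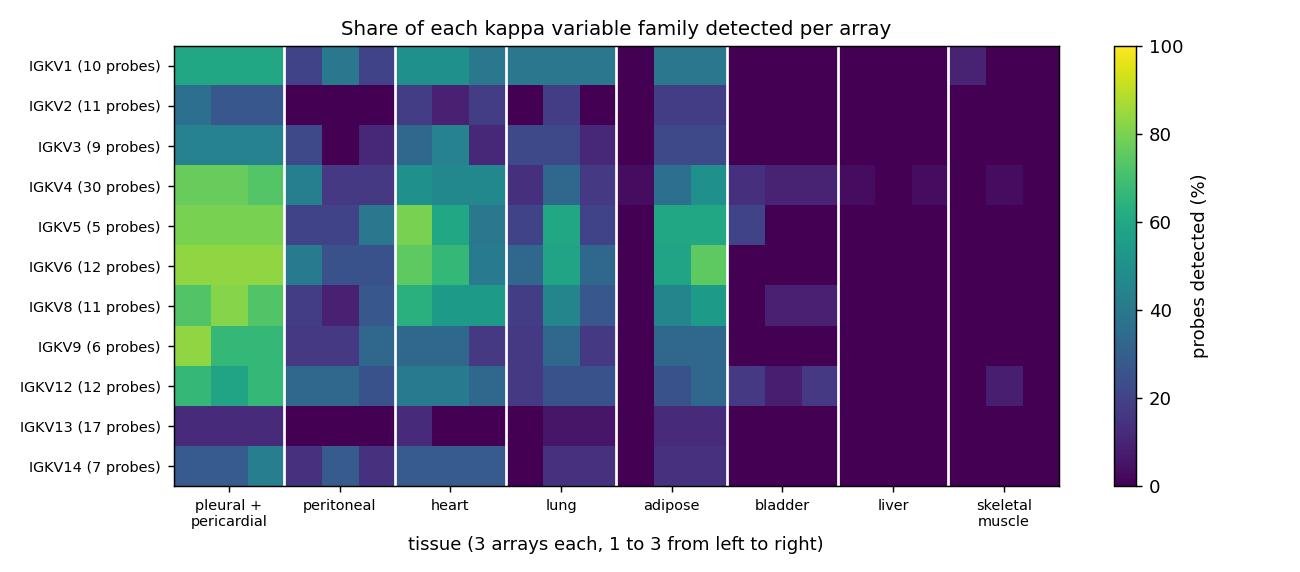
Share of the probes of each kappa variable family with 5 or more probes that were detected on each array, in percent by colour, with 3 arrays for each tissue separated by white lines. In pleural and pericardial mesothelium IGKV6 is at 83.3% on each array and IGKV13, the lowest, at 11.8%, and adipose array 1 has none in most families.

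Peritoneal mesothelium had no light chain probe enriched over the 6 solid tissues by the study's rule, where 0.685% of all probes were, and 0 also at an unadjusted p under 0.05 with a 2-fold difference. Against heart, 44 light chain probes (27.8%) were lower in peritoneal mesothelium, where 8.12% of all probes were, and 0 were higher (9.52% of all probes). Without heart array 1, 23 were lower. IGKV4-55, read on 1 of 3 peritoneal arrays, was 7.65-fold lower (adjusted p = 0.00291), IGKV8-31 6.27-fold lower (adjusted p = 7.83e-05) and IGLV2 3.92-fold lower (adjusted p = 0.00547). Against lung, 3 were higher and 0 lower (6.3% and 5.87% of all probes), and against adipose 2 were higher and 1 lower (5.35% and 4.74%). Against bladder 10 were higher (6.25%) and 1 lower (6.31%), against liver 13 higher (11.3%) and 5 lower (11.1%), and against skeletal muscle 18 higher (12.2%) and 3 lower (12%). As shares of the 158, the higher counts over bladder, liver and skeletal muscle were 6.33%, 8.23% and 11.4%. These counts depended on single arrays. Without adipose array 1, 27 light chain probes were lower in peritoneal mesothelium than in adipose (5.55% of all probes) and 1 was higher (5.27%), and 22, 25 and 25 were higher than in bladder (6.85%), liver (11.8%) and skeletal muscle (12.7%). Leaving out a single peritoneal, bladder, liver or skeletal muscle array lowered the last 3 to as few as 4, 7 and 10.

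Among the solid tissues, heart had the most light chain probes called higher. It was higher than bladder for 63 probes (7.55% of all probes), than liver for 62 (11.1%), than skeletal muscle for 61 (6.35%), than lung for 36 (8.78%) and than adipose for 24 (8.5%), and lower than each of them for 0, where 8.91% (bladder), 9.55% (liver), 5.52% (skeletal muscle), 10.6% (lung) and 10% (adipose) of all probes were lower. Leaving out heart array 1, the heart array with the most light chain probes detected, the counts against lung and adipose fell to 22 and 10, and without adipose array 1 the count against adipose was 12, with 3 lower. Between lung and adipose 0 light chain probes passed in either direction (1 higher and 2 lower in lung at an unadjusted p under 0.05), where 7.45% of all probes were higher and 6.94% lower in lung. Without adipose array 1, 26 light chain probes were lower in lung than in adipose (7.29% of all probes) and 0 were higher (6.93%). Lung was higher than bladder for 10 probes (6.49%) and lower for 1 (6.93%), and without adipose array 1 it was higher for 26 (7.07%) and without bladder array 2 for 3. Against skeletal muscle lung was higher for 11 (13.4%) and lower for 5 (12.7%), and against liver for 12 (12.6%) and 5 (12.1%). Without adipose array 1 these became 29 (14%) and 6 (12.9%) for skeletal muscle, and 27 (13.2%) and 5 (12.3%) for liver. Adipose was higher than bladder for 26 probes (8.14% of all probes), than skeletal muscle for 33 (12.3%) and than liver for 27 (11.7%). It was lower than these for 1 (8.27%), 5 (11.6%) and 3 (9.88%). Without adipose array 1, adipose was higher for 47 (8.44%), 46 (12.5%) and 47 (11.9%) and lower for 0 (7.85%), 2 (10.8%) and 1 (9.18%). Bladder was higher than skeletal muscle for 2 probes (11.3% of all probes) and lower for 1 (10.1%). It was higher than liver for 0 (11.7%, 1 at an unadjusted p under 0.05) and lower for 2 (9.75%). Skeletal muscle was higher than liver for 0 (11.6%) and lower for 0 (9.99%), with 4 and 7 at an unadjusted p under 0.05.

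The arrays of a tissue also differed among themselves. Among probes detected on all 3 arrays, the SD over arrays had a median of 0.56 (log2, 84 probes) in pleural and pericardial mesothelium, 1.01 in heart (43 probes), 0.46 in lung (25 probes) and 0.50 in peritoneal mesothelium (20 probes). The largest was 2.17, for IGKV8-16 in pleural and pericardial mesothelium, and 1.96, for IGKV9-124 in heart. The order of the heart arrays was not shared by all probes. In heart, IGKV5-39 was at 10.33, 11.30 and 9.09 and IGKV15-103 at 9.23, 9.28 and 11.25, so array 2 was highest for the former and array 3 for the latter, while array 1 was highest for IGKC, IGLC1, IGLC2 and IGLC3. IGKV8-16, IGKV9-124, IGKV5-39 and IGKV15-103 were named after their values were seen. Over the 78 kappa variable probes detected on all 3 pleural and pericardial arrays, the Spearman correlation of levels between arrays of the same tissue was 0.825 to 0.917 in pleural and pericardial mesothelium, 0.911 to 0.942 in lung, 0.741 to 0.837 in peritoneal mesothelium and 0.659 to 0.798 in heart. These are correlations across probes, whose own brightness all arrays share, and they are given as a description.

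Kappa and lambda differed in the share of probes read. On all 3 pleural and pericardial arrays 54.1% of kappa and 41.7% of lambda probes were detected. In peritoneal mesothelium the shares were 11% and 33.3%, in lung 14.4% and 33.3%, and in heart 26.7% and 33.3%. The lambda share rests on 12 probes, of which the 3 constant regions and 2 variable segments carry all of the detection. The median log2 difference from peritoneal mesothelium was 1.99 for kappa and 0.14 for lambda probes, and from heart 1.19 and 0.15. For the lambda constant regions alone the medians were 3.46 and 3.44. Several lambda probes matched no RefSeq gene, and the lambda probes were not split by gene type. The shares and medians of the chains therefore rest on unlike sets of probes, and no chain difference was tested on them.

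The constant regions were used to set the chains side by side by their change from tissue to tissue. IGKC ranked 28 or brighter among all probes on each pleural and pericardial array. Its signal before normalization was 35010.6 to 38232.2 there and 12085.2 to 28545.9 in heart. Whether so bright a signal is compressed, which would make the change of IGKC smaller, was not tested. The change of IGKC minus the mean change of IGLC1, IGLC2 and IGLC3 was -0.51 (log2) from peritoneal to pleural and pericardial mesothelium, with an exact two-sided permutation p of 0.3 for n = 3 against 3. It was -1.47 from heart (exact p = 0.1) and 0.11 from lung (exact p = 0.8). The smallest p this design allows is 0.1. In the comparison with heart each of the 3 pleural and pericardial arrays had a smaller kappa excess than each heart array, which is the largest separation 3 arrays against 3 can show, and the other comparisons overlapped.

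A few light chain probes ran the other way. IGKV4-75, a pseudogene by RefSeq, was lower in pleural and pericardial mesothelium, at 5.79, 5.86 and 5.87, than in liver, at 7.38, 6.04 and 7.21 (log2 difference -1.03, adjusted p = 0.00341), and than in skeletal muscle, at 6.97, 6.84 and 6.63 (-0.97, adjusted p = 0.00564). It was detected on 6 arrays, none of them pleural or pericardial, and was the only light chain probe detected elsewhere and not there. Liver array 2 and skeletal muscle arrays 1 and 3 did not detect it either, so its difference from skeletal muscle lies near the background. IGKV13-87 was lower than in bladder (-0.47, adjusted p = 0.049) and IGKV13-80-1 lower than in skeletal muscle (-0.55, adjusted p = 0.0383), and both were detected on no array, so these differences lie within the background. The 3 were named after their values were seen.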

How the data were processed

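RNA of 8 mouse tissues was hybridized to the Illumina Mouse Sentrix-6 BeadChip, 3 arrays each. Bead summaries were made by the authors in BeadStudio 3.1, and the signal intensity of 46120 probes was deposited before normalization between arrays, with background already subtracted (36% of values at or below 0). The deposited detection score, under a p-value heading, rises with the signal and equals 1 less the detection p. The authors also deposited a quantile-normalized intensity table made with Lumi, used here as an alternative.

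Background was modelled by normexp with negative controls inferred from the scores (1616 controls, 10 rows with scores off the common steps left out), an offset of 16 was added, and log2 values were quantile normalized. The linear model, in limma (3.58.1, R 4.3.3), held a mean for each tissue and used all 24 arrays, and the B-statistic assumed 0.01 of probes to change. Benjamini-Hochberg adjustment ran over the 46120 probes within each comparison. Where no array of the lower tissue detected a probe, the fold is a lower bound, with that tissue at the lowest signal of a detected probe on each array (log2 6.06 to 7.24), and the offset makes differences of dim probes smaller. The number of arrays limits the precision. The scripts were tested on simulated data.

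Named probes are all constant, joining and lambda probes, the 10 kappa variable probes with the largest smallest difference to the other tissues, and the 5 kappa variable probes most widely detected outside pleural and pericardial mesothelium. The members, lists and rules were chosen with earlier results of these data known. Gene types came from RefSeq (GRCm38.p6) by symbol. Marker symbols could be looked up only in the study's own tables, chosen on these arrays.

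Same-numbered arrays were checked for pairing by their deviations from the tissue means. All 3 correlations were over 0.1 in 5 of 28 pairs of tissues, with 0.418 to 0.52 between the mesothelium sources and no label that a number marks a shared preparation. A replicate block was run as an alternative.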

Additional observations from a re-analysis of the deposited data

Results flagged for a closer look

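The difference between mesothelium and the 6 solid tissues was itself compared between the sources. For 93 light chain probes it was larger for the pleural and pericardial source, which is the same test as the direct contrast of the sources (limma, adjusted p under 0.05).

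Outside the identifiers that begin with IGK or IGL, a pair of probes are named as kappa genes in a table of the study that was chosen on these arrays, so they are no independent support. The probe named Igk was at 11.36, 10.62 and 8.95 (log2) on the pleural and pericardial arrays and at 4.74 to 8.03 on the other 21, of which 1 detected it. It was 4.92 higher than in peritoneal mesothelium (adjusted p = 4.19e-06). The probe named Igk-V5 was at 6.31, 5.72 and 6.46, against 4.78 to 5.16 on the other 21 arrays, none of which detected it, and was 1.19 higher (adjusted p = 1.24e-05).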

How the results depend on the processing

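The medians kept their sign under the alternatives run, while counts depended on the setting. With all rows used to infer the negative controls, light chain probes called among the solid tissues numbered 37 (79 in the reported fit) and between peritoneal mesothelium and the solid tissues 25 (58), those higher in heart numbered 14 over adipose, 27 over bladder, 28 over liver, 21 over lung and 25 over skeletal muscle, and those lower in peritoneal mesothelium than in heart 20. With every pair of tissues fitted separately, which leaves fewer arrays for the spread, 17 were enriched in pleural and pericardial mesothelium, 43 were higher there than in adipose, 34 higher than in each solid tissue, and 5 higher in heart than in adipose. At a score above 0.95, probes detected on all 3 arrays numbered 11 in adipose, 12 in bladder, 6 in liver, 38 in lung, 32 in peritoneal mesothelium and 4 in skeletal muscle, and at a score of 1 they numbered 0, 1, 0, 12 and 10 in the first 5. The kappa median over peritoneal mesothelium was 3.05 on the authors' values, 1.65 on shifted values and 1.28 with an offset of 50, and over heart 1.67 on the authors' values. The lambda median over peritoneal mesothelium was 0.28 on the authors' values and 0.40 on shifted values. The causes were not tested.

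Leaving out each array in turn gave 37 to 61 probes enriched in pleural and pericardial mesothelium, 0 enriched in the peritoneal source, 85 to 94 higher in the former than in the latter, 59 to 82 higher than in each solid tissue, 10 to 36 higher in heart than in adipose, 22 to 51 than in lung, and 23 to 53 lower in peritoneal mesothelium than in heart. The kappa median over heart was 0.97 to 1.61. For peritoneal mesothelium, leaving out each array in turn, a choice added after seeing the data, gave 1 to 3 higher and 0 to 27 lower than in adipose, 4 to 22 and 1 to 2 than in bladder, 7 to 25 and 1 to 7 than in liver, 2 to 3 and 0 to 1 than in lung, and 10 to 25 and 1 to 3 than in skeletal muscle. Lung had 0 to 1 higher and 0 to 26 lower than adipose, and 3 to 26 and 0 to 1 than bladder. Heart had 0 to 3 lower than adipose, 0 to 1 than liver and 0 to 2 than skeletal muscle. Bladder had 0 to 3 higher and 0 to 3 lower than liver, and 1 to 3 and 0 to 2 than skeletal muscle, which had 0 to 1 higher and 0 to 3 lower than liver. Among these added counts, each one over 20 came without adipose array 1. With the replicate block 47 probes were enriched, 45 of them among those reported, 93 were higher than in peritoneal mesothelium, and IGLC3 was the 1 named probe whose call against peritoneal mesothelium or heart was lost. Dim probes are limited by background, and 63 of 158 were detected on no array.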
